A study of Mus musculus with 2 samples.

Results

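The genes followed here are 10 effector genes of cytotoxic lymphocytes: the granzymes Gzma, Gzmb, Gzmk and Gzmc, the pore-forming protein Prf1, the cytokine Ifng, the granule membrane protein Nkg7, the activating receptor Klrk1 and the T-box transcription factors Eomes and Tbx21. They were picked by symbol as known killing genes, and they make up 10 of the 32285 genes listed for both libraries. The series holds 2 droplet libraries of single cells from pancreatic tumours of KPPC mice, 1 from the vehicle group and 1 from the group given takinib, a small-molecule inhibitor of the kinase TAK1. The labels give an age of 6 weeks, a takinib dose of 50 mg/kg and 14 days of treatment, and the tumours were digested with collagenase and DNase and passed through a strainer with no stated cell sort. KPPC is a name in general use for a genetically engineered mouse model of pancreatic cancer. Both groups are of this model, and the labels give neither the alleles, the Cre driver nor the number of mice pooled into a library. With 1 library per group there is no replicate, so no test between the groups was possible, and every interval below covers counting error only. UMIs of a granzyme lie in few cells, so that the intervals of summed counts are narrower than the true counting spread.

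Cytotoxic T cells and natural killer (NK) cells kill by emptying secretory granules onto a target cell. Perforin lets the granule contents pass the target's membrane, granzymes are serine proteases that then cut proteins inside it, and Nkg7 takes part in moving the granules to the cell surface. Klrk1 encodes NKG2D, a receptor for stress-induced ligands on transformed cells. Tbx21 (T-bet) and Eomes are the T-box factors that direct this programme, and interferon gamma, the product of Ifng, acts on macrophages and on antigen presentation. Gamma-delta T cells that make interleukin 17 form a separate lymphocyte lineage, known more for recruiting neutrophils than for killing.

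The libraries differed before any gene was compared. After filtering, 9558 vehicle cells with a median of 3556 UMIs (unique molecular identifiers, 1 per captured RNA molecule) and 25183 takinib cells with a median of 2887 remained, with a median mitochondrial share of 8.70% and 1.79%. The vehicle table lists 704261 barcodes, empty droplets included, whereas no takinib barcode holds fewer than 500 UMIs. In the vehicle library 1075 kept cells held UMIs of Xist alone and 3087 of Y-linked genes alone, so it mixes cells of female and male origin, while the takinib library held no cell with a Y-linked UMI. Among the kept cells 359 barcodes occurred in both libraries. In vehicle, 54.3% of all UMIs lay in barcodes past the filters, against 14.8% of the Gzma UMIs (52 of 352) and 39.9% of the Nkg7 UMIs (143 of 358), whereas between 92.3% and 99.2% of each gene's takinib UMIs did.

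T and NK cells were taken as the cluster with T cell markers, built without the 10 genes. It held 250 vehicle cells (2.62% of kept cells, exact 95% binomial interval 2.30 to 2.96) and 1250 takinib cells (4.96%, 4.70 to 5.24). The difference in share rests on the clustering: a gate on marker UMIs alone gave 448 and 1264 cells and a log2 ratio of shares of 0.10, against 0.92 from the cluster. The class expressed its label in both libraries, with UMIs of 12 of 12 T markers at a summed 2719 and 2351 CPM (the gene's UMIs divided by all UMIs of the class and scaled to 1000000). NK markers summed to 53.7 CPM in vehicle, with Klra4 and Klra9 at 0, and to 108 CPM in takinib, where 8 of 8 were found.

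Other RNA moved with the groups in these same cells. Neutrophil markers summed to 610 CPM in vehicle, with Retnlg at 0, and to 18532 CPM in takinib, where 90.2% of the T and NK cells held a UMI of S100a8 against 8.8%. Macrophage markers summed to 12513 and 5182 CPM with 12 of 12 found in both, acinar markers to 268 and 27.7 CPM, and erythroid markers to 5.75 and 312 CPM. The median cell held 1424.5 UMIs with 13.2% mitochondrial in vehicle, and 1877.5 UMIs with 2.83% in takinib. When the class was clustered again by itself, 160 of the 250 vehicle cells fell into a subcluster led by mitochondrial genes that held 5 takinib cells. The part of these differences in the results below was not tested, except where a recount without the cells concerned is given.

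The 10 genes were rare in the T and NK cells of both libraries, with 1 exception. Nkg7 was found in 19.2% of vehicle and 32.2% of takinib cells, and each of the other 9 in between 0.4% and 5.84%. At least 1 of the 10 was found in 62 of 250 vehicle cells (24.8%, 19.6 to 30.6) and 487 of 1250 takinib cells (39.0%, 36.2 to 41.7). At least 3 were found in 3 vehicle cells (1.2%) and 64 takinib cells (5.12%). The share of cells was higher in takinib for 8 of the 10, lower for Gzmk and equal for Tbx21.

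**Figure D1:**
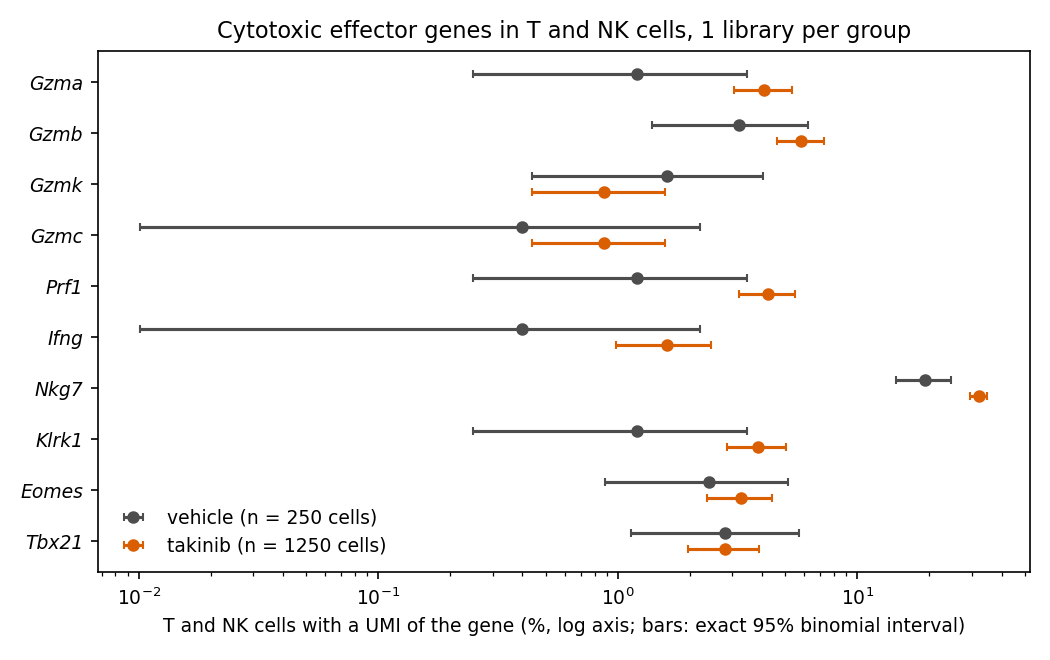
Percent of T and NK cells with at least 1 UMI of each gene (log axis), grey for the vehicle library (250 cells) and orange for the takinib library (1250 cells), with exact 95% binomial intervals. The intervals of the libraries are apart for Nkg7 (19.2% and 32.2%) and overlap for the other 9 genes.

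The granzyme genes followed here sit in a pair of clusters on the mouse genome (GRCm38, GENCODE M21). Gzmb (chr14:56258838-56262260, minus strand) and Gzmc (chr14:56231441-56234656, minus strand) lie 24.2 kb apart, and Gzma (chr13:113093825-113100981, minus strand) and Gzmk (chr13:113171608-113225908, minus strand) 70.6 kb apart. Prf1 lies on chr10:61297833-61304680, plus strand. The 250 bases before the RefSeq start of these genes (GRCm38.p6, each in the gene's own direction, 5′ to 3′) are shown for Gzma, Gzmb, Gzmc and Prf1, because Gzma with Prf1 and Gzmb with Gzmc were found below in partly different cells. Capitals mark each match on either strand to a T-box core (GTGTGA or TCACAC), a Runx core (TGTGGT or ACCACA) or an AP-1 site (TGANTCA).
Gzma, chr13:113100982-113101231, minus strand: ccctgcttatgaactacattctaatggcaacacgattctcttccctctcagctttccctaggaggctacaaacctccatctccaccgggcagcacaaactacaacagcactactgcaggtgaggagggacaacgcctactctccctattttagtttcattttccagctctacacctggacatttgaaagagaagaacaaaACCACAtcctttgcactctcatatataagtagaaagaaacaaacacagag
Gzmb, chr14:56262335-56262584, minus strand: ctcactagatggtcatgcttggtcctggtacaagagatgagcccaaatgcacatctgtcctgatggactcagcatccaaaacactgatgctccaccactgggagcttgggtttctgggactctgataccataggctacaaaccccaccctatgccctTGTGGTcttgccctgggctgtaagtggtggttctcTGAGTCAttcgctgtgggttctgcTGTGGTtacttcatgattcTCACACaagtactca
Gzmc, chr14:56234658-56234907, minus strand: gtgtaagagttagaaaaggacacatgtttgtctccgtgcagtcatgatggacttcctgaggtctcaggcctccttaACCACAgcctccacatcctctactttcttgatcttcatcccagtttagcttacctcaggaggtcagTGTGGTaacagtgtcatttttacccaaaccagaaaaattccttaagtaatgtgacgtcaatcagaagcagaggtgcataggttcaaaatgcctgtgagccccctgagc
Prf1, chr10:61297586-61297835, plus strand: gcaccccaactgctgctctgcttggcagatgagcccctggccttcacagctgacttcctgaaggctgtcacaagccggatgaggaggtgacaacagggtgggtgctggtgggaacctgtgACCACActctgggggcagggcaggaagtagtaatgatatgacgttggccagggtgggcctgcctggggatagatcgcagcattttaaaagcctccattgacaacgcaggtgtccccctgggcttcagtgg
Among these 4 windows, the Gzmb window held all 3 kinds of match, with Runx cores from -93 to -88 and from -34 to -29, the AP-1 site from -58 to -52 and the T-box core from -15 to -10 relative to the start. Positions count from the RefSeq start, which for Gzmb lies outside the GENCODE gene given above, and a stretch of 20 bases shortly after the RefSeq start of Gzmb and of Prf1 was not found in a GENCODE transcript. The Gzma window held 1 Runx core (-50 to -45), the Prf1 window 1 (-130 to -125) and the Gzmc window 2 (-174 to -169 and -108 to -103). Of 32851 windows of this length, 12.3% held the T-box core, 14% the Runx core and 6.75% the AP-1 site. A match describes the letters only.

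Gzma encodes granzyme A, a tryptase-like granzyme abundant in NK cells. The vehicle T and NK cells held 14 Gzma UMIs in 3 cells, or 26.8 CPM, and the takinib cells 795 in 51 cells, or 236 CPM. The takinib library was higher, 8.80-fold by summed CPM (95% interval of the ratio 5.22 to 16.2), and 4.08% of its cells held a Gzma UMI against 1.2%. With cells limited to 10% mitochondrial UMIs, which left 38 vehicle T and NK cells, the difference in share turned from 2.88 to -1.33 percentage points. Of the 14 vehicle UMIs, 11 came from 1 CD8 T cell of 7469 UMIs. In macrophage-like cells, which should lack the gene, 0.228% of vehicle and 0.141% of takinib cells held a Gzma UMI at median depths of 3862 and 5865 UMIs. The takinib share in T and NK cells was above this background. The vehicle share rests on 3 cells, and the lower end of its interval lay close to the macrophage-like share, so it could not be clearly told from background.

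Gzmb encodes granzyme B, the aspartate-cleaving protease that activates caspases in the target. It stood at 20 UMIs in 8 vehicle cells (38.4 CPM) and 216 UMIs in 73 takinib cells (64.2 CPM). The takinib level was 1.67 times that of vehicle (1.06 to 2.80). The shares of cells, 3.2% and 5.84%, had overlapping intervals (1.39 to 6.21 and 4.61 to 7.29), and macrophage-like cells held 0.0415% and 0.0562%. The direction was not stable: with cells limited to 10% mitochondrial UMIs, which left 38 vehicle T and NK cells, the Gzmb log2 ratio was -0.58, against 0.62 with all of them, and the difference in share -7.30 against 2.64 percentage points.

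Gzmk and Gzmc were scarce. Gzmk, a granzyme typical of memory-like CD8 T cells, had 5 UMIs in 4 vehicle cells (9.59 CPM) and 19 in 11 takinib cells (5.65 CPM), a ratio of 0.589 (0.213 to 2.02). Gzmc, a granzyme of strongly activated lymphocytes, had 1 UMI in vehicle and 27 in 11 takinib cells (1.92 and 8.03 CPM), a ratio of 4.19 (0.690 to 171). At these counts no difference in either gene was detectable, but with cells limited to 10% mitochondrial UMIs Gzmk, at 4 and 15 UMIs, was past 2-fold lower in takinib (log2 -1.70).

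Prf1 and Nkg7 act at the granule. Prf1 had 3 UMIs in 3 vehicle cells (5.75 CPM) and 70 in 53 takinib cells (20.8 CPM), 3.62 times as high in takinib (1.19 to 18.0). Nkg7 (chr7:43437073-43438249, plus strand), the most frequent of the 10, had 112 UMIs in 48 vehicle cells (215 CPM) and 1016 in 403 takinib cells (302 CPM), 1.41 times as high (1.16 to 1.73). When every cell was thinned to 1000 UMIs, the shares of cells with Nkg7 were 14.3% and 21.3%. Thinning matched all UMIs, mitochondrial ones included, whose share differed between the libraries as given above. With cells limited to 10% mitochondrial UMIs the Nkg7 log2 ratio turned from 0.47 to -0.048.

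Ifng (chr10:118441046-118445892, plus strand) had 1 UMI in the vehicle cells (1.92 CPM) and 90 in 20 takinib cells (26.8 CPM), a ratio of 14.0 (2.44 to 557). The takinib level rests on 1 cell: a Cd4-positive cell of 9786 UMIs with 9 UMIs of the proliferation gene Mki67 held 62 of the 90 Ifng UMIs. Without the cell richest in the gene in each library, the Ifng log2 ratio was 0.88, against 1.62 with it. The share of cells, 0.4% in vehicle and 1.6% in takinib, does not depend on how many UMIs that cell held, and its intervals overlapped (0.0101 to 2.21 and 0.980 to 2.46).

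Klrk1 (chr6:129610323-129623864, minus strand), the NKG2D receptor gene, had 3 UMIs in 3 vehicle cells (5.75 CPM) and 64 in 48 takinib cells (19.0 CPM), 3.31 times as high in takinib (1.08 to 16.5). The takinib share of 3.84% (2.84 to 5.06) lay above the 0.450% of macrophage-like cells, whereas the vehicle share of 1.2% (0.248 to 3.47) could not be told from their 0.747%. Its ligand genes were nearly absent from T and NK cells: of 5 measured, Ulbp1 alone reached 10 counts in a library, with 2 and 11 UMIs. The ligand genes were not read in tumour cells, so these counts do not describe the ligands there.

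For the T-box factors no difference was detectable at this depth. Eomes (chr9:118478212-118486132, plus strand) had 10 UMIs in 6 vehicle cells (19.2 CPM) and 47 in 41 takinib cells (14.0 CPM), a ratio of 0.729 (0.363 to 1.62). Tbx21 (chr11:97098071-97115331, minus strand) had 7 UMIs in 7 vehicle cells (13.4 CPM) and 37 in 35 takinib cells (11 CPM), a ratio of 0.819 (0.361 to 2.18), and 2.8% of cells in both libraries held it. Both intervals span 1.

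Past a 2-fold difference, on a log2 scale with 10 CPM added to both levels and at least 10 counts in a library, were Gzma (2.74) and Ifng (1.62), both higher in takinib, and none of the 10 was lower. Of all 10955 genes with that many counts in these cells, 3.05% were higher and 1.55% lower by the same rule. The median log2 ratio was 0.61 over the 10 genes and -0.03 over all genes. By the interval of the count ratio, 6 of the 10 lay above 1 (Gzma, Gzmb, Prf1, Ifng, Nkg7 and Klrk1) and none below, against 8.26% of all genes above and 10.8% below.

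Much of the takinib signal lay in cells with an NK receptor UMI. Cells holding a UMI of any of 8 NK markers made up 10 of the 250 vehicle cells (4.0%, 1.93 to 7.23) and 89 of the 1250 takinib cells (7.12%, 5.76 to 8.69), with a median of 1446 and 2357 UMIs. In takinib these 89 cells held 684 of the 795 Gzma UMIs, 42 of the 70 Prf1 UMIs, 48 of the 64 Klrk1 UMIs and 15 of the 19 Gzmk UMIs. They held 78 of the 216 Gzmb UMIs and 383 of the 1016 Nkg7 UMIs. The 10 vehicle cells held 2 Gzma and 14 Nkg7 UMIs and none of Gzmb, Prf1 or Klrk1.

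In the T and NK cells without an NK marker UMI, 240 in vehicle and 1161 in takinib, the interval of the ratio spanned 1 for 8 of the 9 genes with at least 10 counts. Gzma stood at 23.9 and 36.2 CPM (ratio 1.52, 0.834 to 3.02), Gzmb at 39.8 and 45.0 CPM (1.13, 0.704 to 1.91) and Prf1 at 5.97 and 9.13 CPM (1.53, 0.472 to 7.86). Nkg7 stood at 195 and 206 CPM (1.06, 0.854 to 1.32) and Klrk1 at 5.97 and 5.22 CPM (0.874, 0.250 to 4.68). Eomes had a ratio of 0.583 (0.272 to 1.39), Tbx21 of 0.601 (0.236 to 1.81) and Gzmc, with 1 and 18 UMIs, of 2.95 (0.466 to 123). Gzmk had 5 and 4 UMIs, a ratio of 0.131 (0.0260 to 0.609), under the minimum of 10 counts. Among the 9 genes, Ifng alone was past 2-fold, at a count ratio of 11.8 (2.05 to 472) that holds the 1 cell named above, against 3.18% of all genes higher and 1.71% lower. The interval lay above 1 for 1 of the 9 genes, again Ifng, against 8.38% of all genes. The split by NK markers was chosen after the values were seen.

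**Figure D2:**
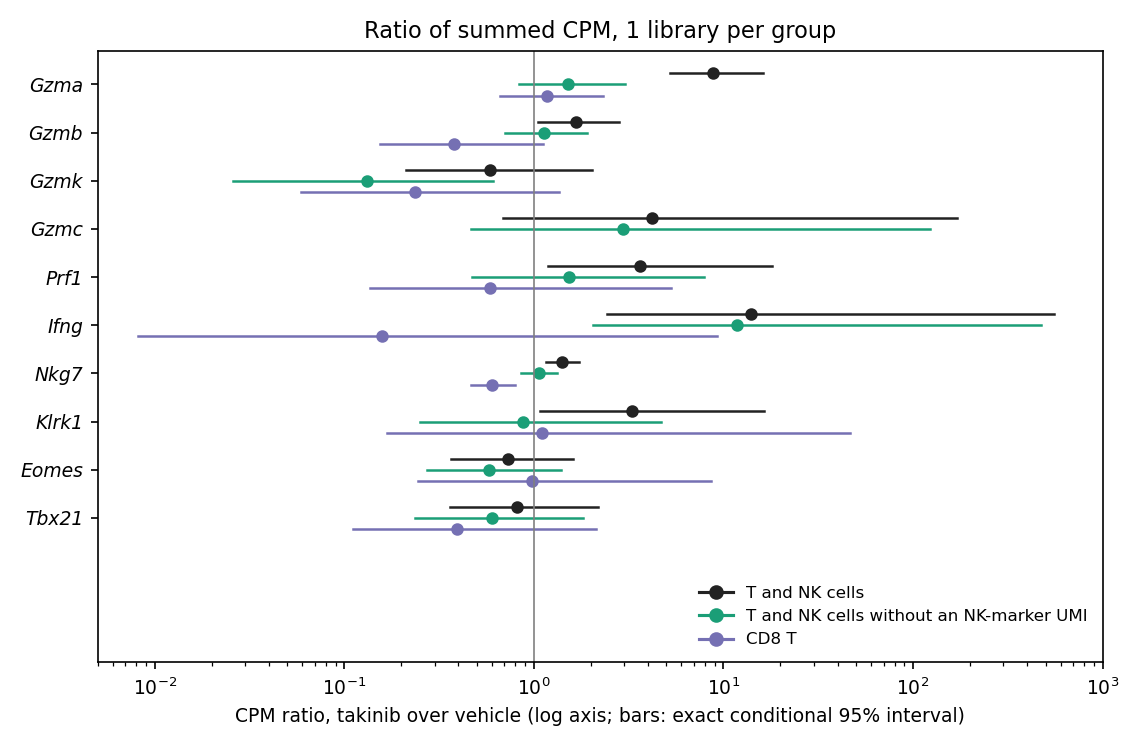
Ratio of summed CPM, takinib over vehicle (log axis), for each gene in all T and NK cells (black), in those without an NK marker UMI (green) and in CD8 T cells (purple), with exact conditional 95% intervals. The black points for Gzma (8.80), Prf1 (3.62) and Klrk1 (3.31) lie to the right of the green ones (1.52, 1.53 and 0.874).

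CD8 T cells, those with a UMI of a T cell receptor or CD3 gene and of Cd8a or Cd8b1 but not Cd4, numbered 46 in vehicle and 470 in takinib. They carried Nkg7 but few granzymes. Nkg7 had 67 UMIs in 29 vehicle cells (632 CPM) and 514 in 241 takinib cells (381 CPM), and was lower in takinib, at 0.603 of the vehicle level (0.467 to 0.791). The shares of CD8 T cells with Nkg7 were 63.0% and 51.3%, and 47.4% and 31.1% after thinning to 1000 UMIs.

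Gzmb had 6 UMIs in 4 vehicle CD8 T cells and 29 in 13 takinib cells (56.6 and 21.5 CPM), a ratio of 0.380 with an interval that spans 1 (0.155 to 1.12). Gzma had 12 and 180 UMIs (113 and 134 CPM, ratio 1.18, 0.659 to 2.33), with 11 of the 12 in 1 vehicle cell. Prf1 had 2 and 15 UMIs, Eomes 2 and 25, Tbx21 3 and 15, Klrk1 1 and 14, Gzmk 3 and 9, Ifng 1 and 2, and Gzmc none in either library. Of the 7 genes with at least 10 counts, none was past 2-fold higher in takinib and 1, Gzmb, was lower (log2 -1.08), against 12.8% of all genes higher and 6.35% lower. By the count-ratio interval 1 of the 7, Nkg7, lay below 1 and none above, against 5.49% of all genes below and 3.78% above. With 46 vehicle cells these counts are shallow: 2 of the 10 genes had a log2 ratio above 0, but 5 did without the cell richest in each gene.

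The CD4 T cells, 45 in vehicle and 85 in takinib, held Gzmb at 6 UMIs in 1 vehicle cell (2.22%) and 4 UMIs in 3 takinib cells (3.53%). Gzma had no UMI in the vehicle CD4 T cells and 13 in 2 takinib cells, and Ifng none and 64, of which 62 were in the 1 cell described above. The remaining T cells, with a T gene UMI but no clear CD4 or CD8 assignment, numbered 144 and 604. They held no Gzma UMI in vehicle and 381 in takinib, at least 23.7-fold higher by a floor of 3 counts in the vehicle class, and 352 of the 381 lay in 46 cells that also held an NK marker UMI. Gzmb stood at 24.8 and 97.3 CPM in the remaining T cells (ratio 3.92, 1.85 to 9.91), and here 120 of the 147 takinib UMIs lay in cells without an NK marker UMI. Of the 9 genes with at least 10 counts in these cells, 4 were past 2-fold higher (Gzma, Gzmb, Gzmc and Prf1) and 1, Eomes, lower, against 5.64% and 2.13% of all genes. By the count-ratio interval 4 of the 9 lay above 1 and 1 below, against 7.63% and 6.08%. The gate of NK marker cells without a T gene UMI held 2 vehicle and 24 takinib cells, too few in vehicle for a comparison.

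Clustering the T and NK cells by themselves, again without the 10 genes, parted the takinib cells into groups with different effector genes. Subcluster 6 was led by Klrb1c, Klra7 and Ncr1, the NK receptor genes, and held 55 takinib and 7 vehicle cells. Its takinib cells carried Gzma in 54.5% (507 UMIs), Gzmb in 38.2% (58 UMIs), Prf1 in 32.7% (30 UMIs), Klrk1 in 40% (32 UMIs) and Nkg7 in 87.3% (260 UMIs). Thus 63.8% of the Gzma UMIs of all takinib T and NK cells lay in 4.4% of the cells. At least 3 of the 10 genes were found in 34 of these 55 cells (61.8%, 47.7 to 74.6).

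Subcluster 10 was led by Il17a, Trdv4, Cd163l1 and Trdc, genes of interleukin 17-producing gamma-delta T cells, and held 74 takinib cells and no vehicle cell, where 0 of 250 has an exact upper bound of 1.46%. It was also led by the haemoglobin gene Hbb-bs, and its erythroid markers summed to 2156 CPM, against 312 CPM in all takinib T and NK cells. Gzmb was found in 22 of its 74 cells (29.7%, 19.7 to 41.5) with 95 UMIs, or 44.0% of the Gzmb UMIs of takinib T and NK cells. Gzmc had 16 UMIs in 4 of its cells, 59.3% of the class, and all 4 also held Gzmb. Prf1 had 7 UMIs and Klrk1 6, each in 5 of its cells (6.76%), and Ifng 6 in 4 (5.41%). Nkg7 had 4 UMIs in 4 cells (5.41%), Gzma and Tbx21 1 each, and Eomes and Gzmk none. Without subcluster 10 the log2 ratio of Gzmb in T and NK cells was 0.02, against 0.62 with it. After thinning to 1000 UMIs the Gzmb shares were 16.1% in subcluster 10 and 31.7% in subcluster 6, whose median depths were 3031.5 and 1634 UMIs. NK markers were at or near 0 in subcluster 10, with 4 UMIs in all and 6 of 8 markers at 0.

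Subcluster 7, led by Ly6c2, Ccl5 and Cd8b1, held 204 takinib cells and 1 vehicle cell. It carried Nkg7 in 63.7% of its takinib cells and Eomes in 6.86%, but Gzma in 0.980%, Gzmb in 1.96% and Prf1 in 1.96%. Subcluster 9, led by Igfbp4 and Tcf7, a factor of naive and memory T cells, held 386 takinib cells and no vehicle cell. It carried Nkg7 in 21.8% and each of the other 9 genes in between 0% and 2.33%. The dividing cells of subcluster 4, led by histone genes and Mki67, numbered 17 in takinib and 13 in vehicle. They held 142 takinib Gzma UMIs in 5 cells (29.4%) and 64 Ifng UMIs in 3. Gzmb was found in 5 of these 17 takinib cells as well (29.4%, 10.3 to 56.0), and Prf1 and Klrk1 in 4 each (23.5%), at a median depth of 7983 UMIs. In vehicle the dividing cells held 11 of the 14 Gzma and 7 of the 20 Gzmb UMIs, and the 34 cells of subcluster 2, led by Tnfrsf4, Ikzf2 and Ctla4, genes of regulatory T cells, with Chga and Chgb, held another 7 Gzmb UMIs in 2 cells. The 160 vehicle cells led by mitochondrial genes carried Nkg7 in 21.2% (71 UMIs) and at most 9 UMIs of any other of the 10 genes. Subclusters 3 and 8, led by macrophage and by neutrophil genes, held 29 and 4 vehicle cells and 113 and 275 takinib cells. Without them 5 of the 10 genes were past 2-fold higher in takinib, against 2 with them.

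**Figure D3:**
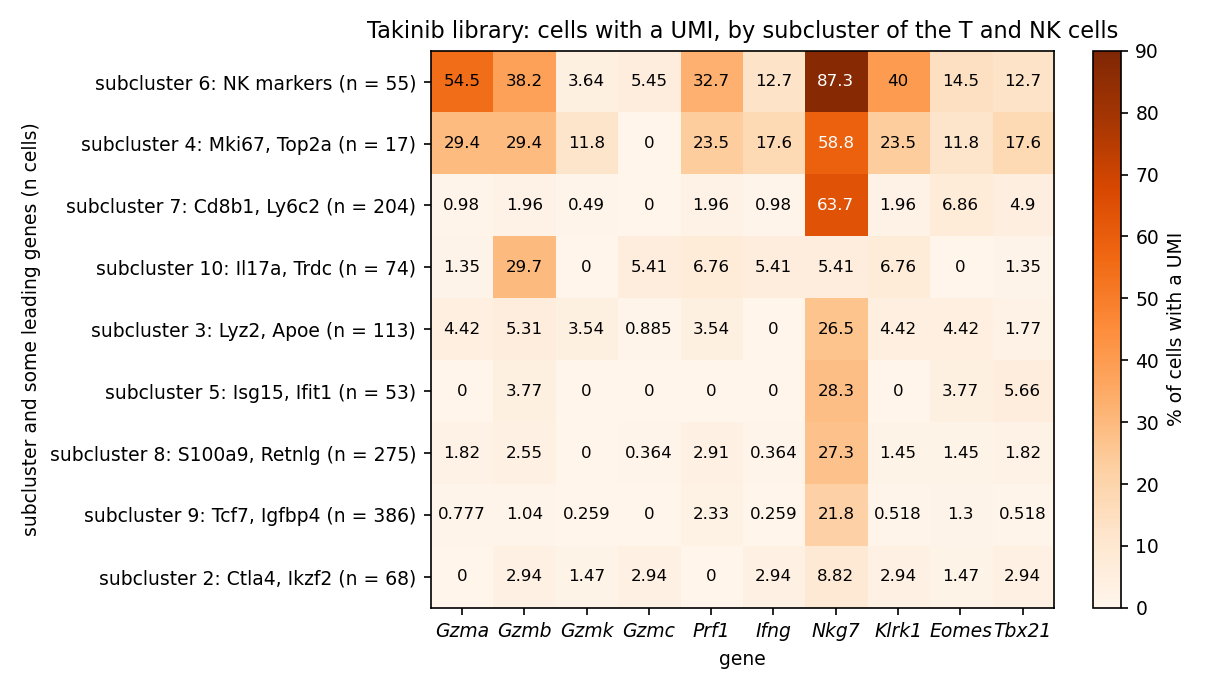
Percent of takinib cells with a UMI of each gene (columns) in each subcluster of the T and NK cells with more than 5 takinib cells (rows, with some leading genes and the number of cells). Nkg7 is found in every row, Gzma reaches 54.5% in subcluster 6 and 29.4% in subcluster 4, and Gzmb 38.2% in subcluster 6, 29.7% in subcluster 10 and 29.4% in subcluster 4.

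Co-detection in single takinib T and NK cells set Gzma beside Gzmb, Nkg7, Prf1 and Klrk1. Gzma and Gzmb were found together in 28 cells, where the product of their shares gives 2.98, and after thinning to 1000 UMIs in 18.6 against 1.59. The 28 cells were 54.9% of the 51 with Gzma and 38.4% of the 73 with Gzmb. Of the 51 Gzma cells 46 held Nkg7 (90.2%), 22 held Prf1 and 22 held Klrk1 (43.1% each). Of the 73 Gzmb cells 38 held Nkg7 (52.1%), 18 Klrk1 and 14 Prf1. The product of shares above pools unlike groups of cells. Among the 55 takinib cells of subcluster 6, Gzma and Gzmb were found together in 17 cells, against a product of 11.5. There Gzma with Prf1 gave 15 against 9.82, with Nkg7 29 against 26.2, and with Klrk1 14 against 12.

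Gzmc went with Gzmb: 8 of its 11 cells held Gzmb (72.7%, 39.0 to 94.0), and 3 held Gzma. Eomes and Tbx21, measured in 41 and 35 cells, shared 6. Nkg7, found in 32.2% of all these cells, was present in between 36.4% and 90.2% of the cells with any other of the 10 genes. The lowest share was that of Gzmc, with 4 cells where the product of shares gives 3.55, and for Gzmb it was 38 cells against 23.5. Cells pooled here share 1 library, and detecting a pair depends on the depth of the cell, so the counts are descriptions. In vehicle no pair was found in more than 5 of the 250 cells, and 1 dividing CD8 T cell held 7 of the 10 genes.

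**Figure D4:**
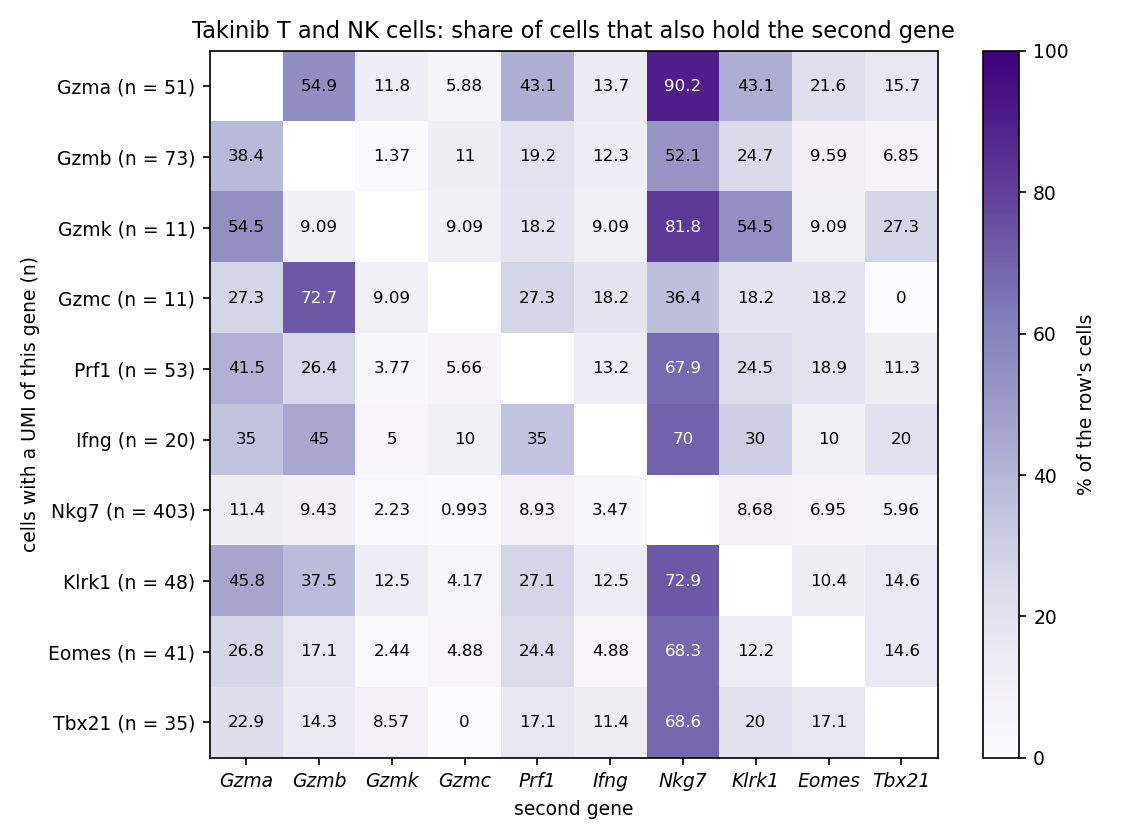
For the takinib T and NK cells with a UMI of the gene in the row (number of cells in brackets), the percent that also held a UMI of the gene in the column. The Nkg7 column runs from 36.4% to 90.2%, where 32.2% of all these cells held Nkg7, and the Gzmc row peaks at Gzmb (72.7%).

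Outside T and NK cells, Nkg7 was also found in 158 of the 770 takinib cells of neutrophil-like cluster 21 (20.5%), with 949 UMIs or 162 CPM, nearly as many UMIs as in all takinib T and NK cells. Those 158 cells held the granule genes of early neutrophil precursors, with Mpo at 3013 CPM against 80.9 in the 612 cells without Nkg7, Elane at 5489 against 104, Prtn3 at 6133 against 251 and Ms4a3 at 982 against 60.5. Of the later granule genes, Ltf was lower in them (1719 against 5078 CPM), Ngp less so (13562 against 19657) and Camp was not (12417 against 12242). The 158 cells were also deeper (median 12571 against 5289.5 UMIs). T cell RNA was nearly absent: Cd3e stood at 0.483 against 2.92 CPM, and Prf1, Gzmb and Klrk1 had no UMI in the cluster. The vehicle library had 10 cells in this cluster, with 1 Nkg7 UMI. Summed over all kept cells, Nkg7 had 141 vehicle and 2215 takinib UMIs and was the only 1 of the 10 past 2-fold higher (log2 1.09), with none lower, against 2.19% of all genes higher and 2.86% lower. The other 9 stood at or below 8.04 CPM in all kept cells, so that the 10 CPM added shrink their log2 ratios. Their count ratios included 7.04 for Gzma (5.27 to 9.61), 3.95 for Gzmb (2.55 to 6.43), 2.25 for Prf1 (1.30 to 4.17) and 32.6 for Ifng (5.71 to 1302), sums that also move with the share of T and NK cells. By the count-ratio interval 5 of the 10 lay above 1 in all kept cells and none below, against 20.8% and 56%.

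Klrk1 had 9 UMIs in 7 of 211 acinar-like vehicle cells (11.6 CPM) and 9 in 6 of 46 acinar-like takinib cells (30.7 CPM), with intervals (5.29 to 22.0 and 14.0 to 58.3 CPM) that overlap those of T and NK cells (1.19 to 16.8 and 14.7 to 24.3 CPM). The other 9 genes had together 1 UMI there, of Prf1 in vehicle. Macrophage-like cells held 38 Klrk1 UMIs in vehicle and 36 in takinib (1.83 and 0.754 CPM). In macrophage-like cells Gzmb stood at 0.0965 and 0.230 CPM and Prf1 at 0.0482 and 0.126 CPM. Of the vehicle Gzma UMIs in kept cells, 34 of 48 (70.8%) lay outside T and NK cells, spread over 30 cells at 0.820 CPM, with 13 in macrophage-like and 9 in epithelial-like cells. In takinib 168 of 963 Gzma UMIs (17.4%) lay outside, at 1.44 CPM. Of the vehicle Gzmc UMIs 11 of 12 lay outside T and NK cells, 8 of them in 2 epithelial-like cells, against 3 of 30 in takinib.

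**Figure D5:**
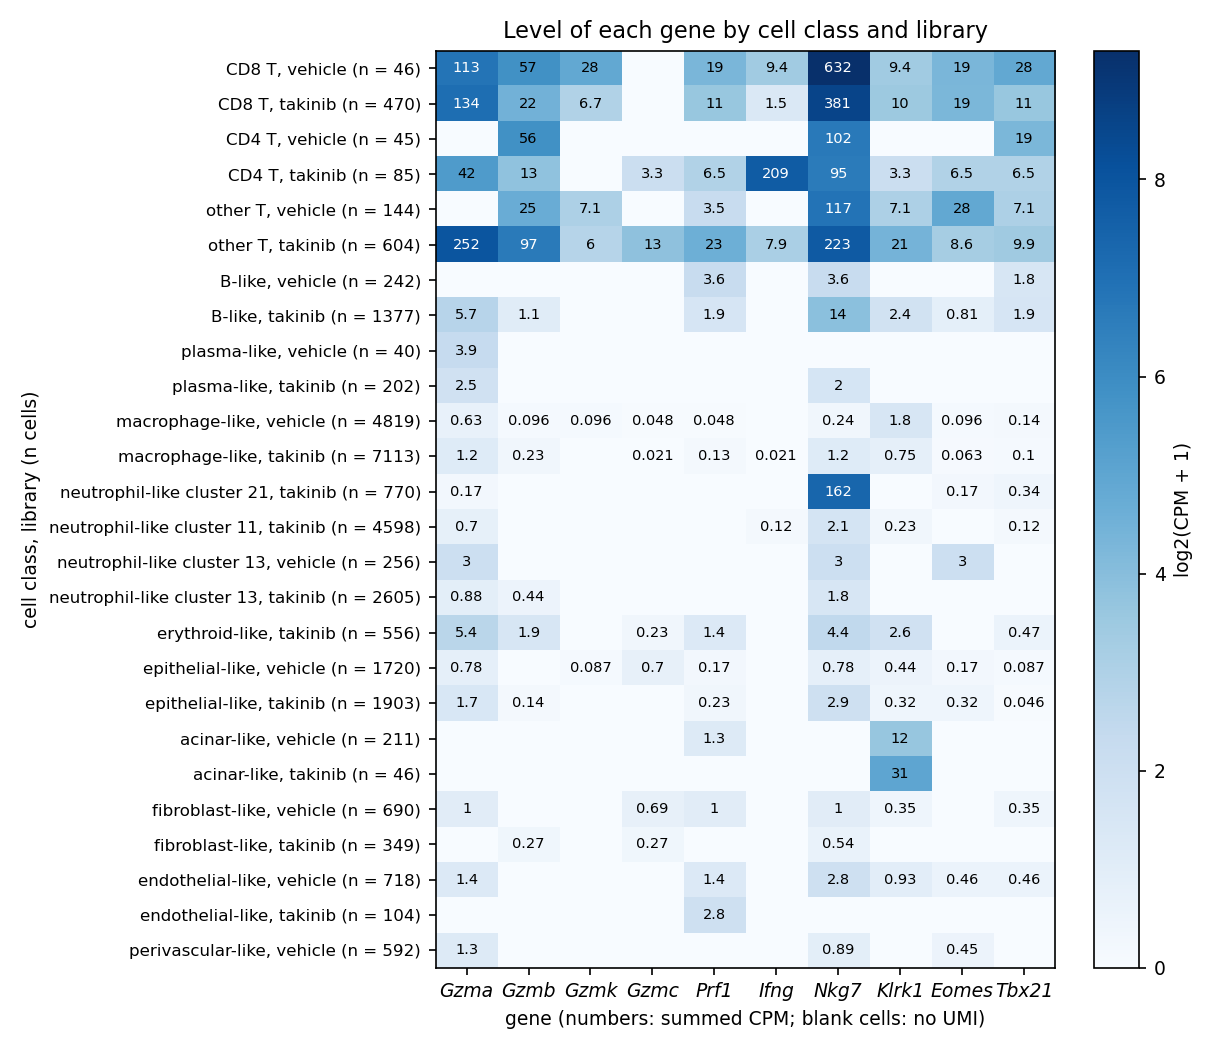
Summed CPM of each gene (columns) in each cell class of at least 40 cells in a library (rows), coloured by log2(CPM + 1) and blank where no UMI was found. T cell rows hold the highest values of every gene but Klrk1, whose acinar-like takinib row (30.7) exceeds them, and the neutrophil-like cluster 21 row is high in Nkg7 (162).

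Single barcodes held many UMIs of Gzmb and Gzmc. In takinib 1 cell of subcluster 10 with 4545 UMIs held 31 Gzmb and 11 Gzmc UMIs. A takinib barcode of 17488 UMIs that was removed as a probable doublet held 88 Gzmc, 51 Gzmb, 26 Prf1 and 22 Gzma UMIs. That barcode held 88 of the 119 Gzmc UMIs of all takinib barcodes past the filters, so the level of Gzmc depends on the doublet rule. With no doublets removed, 4 of the 10 genes were past 2-fold higher in T and NK cells, against 2.

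The neighbouring genes of the pathway were read in the same T and NK cells by the same 2-fold rule, where 3.05% of all genes were higher and 1.55% lower. Of the granule and secretion genes 3 of 15 were higher and none lower, with a median log2 ratio of -0.10. These were Srgn, the proteoglycan of granules, at 871 and 2119 CPM (1.27), Lyst, which shapes lysosomes, at 49.9 and 116 CPM (1.07), and the fusion protein Stx11 at 15.3 and 41.3 CPM (1.02). The granzyme-activating protease Ctsc stood at 299 and 181 CPM and Ctsw at 119 and 80.9 CPM. Of 6 further granzymes 1 had enough counts and was not past 2-fold, nor was any of the 4 measured serpins that inhibit granzymes.

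Of the effector cytokines and chemokines 5 of 9 were higher and 1 lower, with a median log2 ratio of 1.98. Ccl3 stood at 71.0 and 1553 CPM (4.27), Ccl4 at 107 and 719 CPM (2.64), Ccl5 at 307 and 1236 CPM (1.98) and Tnf at 7.67 and 79.4 CPM (2.34). Il17a had no UMI in vehicle and 1501 in takinib, 1293 of them in subcluster 10. Xcl1, a chemokine of NK and CD8 T cells, was lower, at 94.0 and 21.7 CPM (-1.71, from 49 and 73 UMIs). The share of cells with Xcl1 ran the other way (2% and 2.56%), so the vehicle level rests on few cells. Ccl3 and Ccl4 also led the subcluster with neutrophil genes, and Tnf was among the leading genes of a neutrophil-like cluster at Leiden resolution 2. The levels of these genes cannot be read as those of lymphocytes alone.

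Of 12 NK receptors Klrd1 was higher (44.1 and 100 CPM, 1.03) and Klrg1 lower (log2 -1.23). Of 18 lymphocyte transcription factors Batf (1.25) and Nr4a1 (1.01) were higher and Gata3 (-1.14) and Tox (-1.20) lower. Runx3, which acts with the T-box factors in cytotoxic cells, stood at 109 and 86.5 CPM. Of 12 receptor and signalling genes for interleukins 2, 12, 15 and 18, Il18rap alone was higher (19.2 and 75.2 CPM, 1.55) and none lower. At Leiden resolution 2 Il18rap was also a leading gene of a neutrophil-like cluster. Its level thus cannot be read as that of lymphocytes alone. Among the naive and memory genes Klf2 was higher (1.76). Of 8 exhaustion genes Lag3 was lower, with 14 UMIs in each library (26.8 and 4.16 CPM, -1.38). None of 6 interferon gamma receptor and signalling genes and none of 3 measured input cytokines passed.

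Likeness was measured over 20 sums of cell class by library, as the Pearson correlation of log2(CPM + 10). The 3 closest to Gzmb were Trgv2 (0.965), Klrb1c (0.963) and Actn2 (0.960). Prf1 was closest to Actn2 (0.956), Tcrg-C2 (0.940) and Lime1 (0.923), and Gzma to Gm2682 (0.947), Lime1 (0.938) and Gm14085 (0.936). Eomes was closest to Gpr83 (0.980), Cd96 (0.967) and Cd27 (0.954). Nsg2 (0.981) and Skap1 (0.981) were among the 3 closest to Tbx21. Ifng was closest to Cd4 (0.970), Rgsl1 (0.956) and Ica1l (0.943), in a class whose Ifng came mainly from 1 cell. These sums share 2 libraries, and in most of them the genes stood near 0, so the values are descriptions.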

How the data were processed

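The authors deposited unnormalized counts of UMIs by gene and barcode. Cell Ranger 4 wrote the vehicle table and Cell Ranger 6.1.1 the takinib table, per the file headers. The submitters' processing notes name Cell Ranger 2.1.1, bcl2fastq, STAR 2.0.4b, Subread and featureCounts 1.45 with the mm10 build, without saying which made these files. Barcodes entered with 1000 or more UMIs, 500 or more genes and no more than 20% mitochondrial UMIs. Scrublet, run in scanpy 1.11.5, took out 314 vehicle barcodes by its automatic threshold. In takinib that threshold marked 0.00373% of barcodes, under the 0.5% set for a working caller, and the 1607 highest scores (6%) were taken out instead. Both libraries were clustered together without the 10 genes (2000 variable genes, 30 components, 15 neighbours, Leiden resolution 1, igraph 0.11.9, seed 1), with no correction between libraries or for free RNA. T and NK cells were 1 cluster, named from T markers, gated by marker UMIs and clustered again (1000 variable genes, 20 components), the last step chosen after seeing the data. Counts were summed by class and library into CPM, with exact 95% binomial, Poisson and conditional ratio intervals (scipy 1.17.1). Thinned shares are expected values at 1000 UMIs, so no cell was left out. The scripts were tested on simulated data.

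The library totals are 80850334 UMIs in vehicle and 139292875 in takinib, of which kept cells held 42000538 and 119726977. A group is 1 library, so no test, p-value or SD is given. The text names all 10 genes, the genes of the related lists with their counts, and for 6 of the 10 the 3 most correlated genes. Some of these genes are not reported here. The members, lists and gates were chosen with earlier results of these data known. Gene positions are from GENCODE M21 and the bases before gene starts from RefSeq, where all 10 genes matched by symbol; for Gzmb, Gzmk and Prf1 a stretch of 20 bases shortly after the RefSeq start was not found in a GENCODE transcript.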

Additional observations from a re-analysis of the deposited data

Results flagged for a closer look

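The summed level of Gzmb differed in direction between 2 classes of T cells: its log2 ratio was -1.51 in CD4 T cells (55.6 and 13.1 CPM, from 6 and 4 UMIs) and 1.62 in the T cells without a clear CD4 or CD8 assignment (24.8 and 97.3 CPM). The CD4 value is under the minimum of 10 counts, its 6 vehicle UMIs came from 1 cell, and the share of CD4 T cells with Gzmb ran the other way (2.22% and 3.53%). Nkg7 did so as well, at -0.71 in CD8 T cells (632 and 381 CPM) and 0.87 in the T cells without a clear assignment (117 and 223 CPM). Each pair was listed because the 2 counting intervals lay on opposite sides of 1. The differences were not tested, as each group is 1 library.

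Signal also lay in vehicle barcodes outside the filters, which enter no comparison: 300 UMIs of Gzma, 215 of Nkg7, 115 of Klrk1, 55 of Prf1, 52 of Eomes, 46 of Gzmb, 23 of Tbx21, 13 of Gzmk, 7 of Gzmc and 7 of Ifng. Vehicle barcodes with over 250 and up to 500 UMIs and with over 20% mitochondrial UMIs numbered 56463 and held 169 Gzma UMIs, spread over 164 barcodes (8.39 CPM), and 108 Nkg7 UMIs over 106 barcodes (5.36 CPM). The takinib table holds no barcode under 500 UMIs to set beside them.

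Takinib barcodes removed as doublets held 96 UMIs of Gzmb and 89 of Gzmc, of which 51 and 88 came from the 1 barcode of 17488 UMIs.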

How the results depend on the processing

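No paired analysis was possible because each group is 1 library. Leaving out a library would leave no comparison.

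The log2 ratio of the share of T and NK cells (0.92) was 2.23 with at least 2000 UMIs and 1000 genes, 2.81 with at most 10% mitochondrial UMIs, 0.10 by the marker gate, 1.15 and 1.48 with only Xist-positive or Y-positive vehicle cells, 0.54 without cells over 1% S100a8 and S100a9, 0.59 without the subclusters led by macrophage and neutrophil genes, 0.23 by the marker gate with no mitochondrial limit, and turned to -0.047 by the marker gate from 500 UMIs. Under thinning it was not recomputed.

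The number of genes past 2-fold higher in T and NK cells (2) was 4 with at least 2000 UMIs, with no doublets removed, after thinning and without cells over 1% S100a8 and S100a9, 5 with 1 CPM added or without the subclusters led by macrophage and neutrophil genes, 6 by the marker gate with or without the mitochondrial limit, 7 with Xist-positive vehicle cells only or by the marker gate from 500 UMIs, and 1 without NK marker cells. The number lower (0) was 1 at 10% mitochondrial UMIs, namely Gzmk (log2 -1.70, against -0.32 with all cells), and there the Nkg7 log2 ratio turned to -0.048.

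In CD8 T cells the number of genes with a log2 ratio above 0 (2) was 1 with at least 2000 UMIs, at 10% mitochondrial UMIs and at Leiden resolution 2, 8 with Xist-positive vehicle cells only (5 vehicle cells), 0 without subcluster 6 or without NK marker cells, 5 without the richest cell of each gene and 4 by the marker gate from 500 UMIs. The causes were not tested, and the recounts differed in the cells that they used. Gzma kept a log2 ratio above 0 under all 22 alternatives (0.45 to 4.62), as did Prf1 (0.26 to 1.69), Ifng (0.88 to 3.25) and Gzmc (0.19 to 1.64), while Gzmb ran from -0.58 to 2.89 and Klrk1 from -0.07 to 1.68. Under 19 alternatives for the shares of cells, of the 8 genes with a higher share in takinib, the difference turned below 0 for Gzma (-1.33 percentage points) and Gzmb (-7.30) at 10% mitochondrial UMIs, for Gzmb with Y-positive vehicle cells only (-1.43), for Eomes after thinning (-0.043) and for Klrk1 without NK marker cells (-0.044). Tbx21, equal in both libraries, stood at -5.98 with at least 2000 UMIs. Several alternatives were chosen after seeing the data: the S100a8 and S100a9 limit, the recounts without subclusters, NK marker cells or richest cells, and the marker gates on wider sets of barcodes. In vehicle, 1 to 20 UMIs of each gene but Nkg7 limit all ratios.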
